A study of Homo sapiens with 3 samples.

Results

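The 7 genes described here encode the core of the RAS-ERK pathway: the GTPases HRAS and NRAS, the RAS inhibitor NF1, the kinase BRAF, the MEK kinases MAP2K1 and MAP2K2, and the ERK kinase MAPK3. They were chosen by name, and every region whose list of assigned genes held one of them was taken, which gave 51 of 67965 regions and 7 of the 21948 gene symbols in the table. The samples were chromatin immunoprecipitations (ChIP) followed by sequencing, 1 with an antibody to histones H3.1 and H3.2 and 1 with an antibody to H3.3, and 1 input DNA sample that was not analysed here. All were from MDA-MB-231 LM2 cells, a lung-metastatic subline of the human breast cancer line MDA-MB-231, untreated as far as the labels say. The column headers of both ChIPs also read shGFP, a control hairpin on which the labels are silent. Each antibody had a single library, so replicates could not be compared, no test was possible and all intervals cover counting error only.

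In this pathway, growth factor receptors recruit adaptors and exchange factors that load RAS with GTP. RAS then recruits RAF kinases, which phosphorylate MEK, and MEK phosphorylates ERK, which acts on cytoplasmic and nuclear substrates. NF1, or neurofibromin, ends the signal by speeding GTP hydrolysis on RAS, and MDA-MB-231 is known for mutational activation of this pathway. H3.1 and H3.2 are deposited mainly behind the replication fork, whereas H3.3 is deposited throughout the cell cycle and is known to gather at active promoters and enhancers.

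Promoter sequence is shown for 4 of the genes. Regions reached the start window of NRAS, MAP2K1 and NF1 over most of its length, and MAP2K2 had the lowest H3.3 share at its nearest promoter region. The windows run from 250 bases before to 50 bases after a RefSeq start on GRCh38.p14 and are written 5′ to 3′ along the gene. Capitals mark GC boxes (GGGCGG or its reverse complement CCGCCC), a cyclic AMP response element (TGACGTCA) and ETS motifs (CCGGAAG or CTTCCGG), searched on both strands.
NRAS, chr1:114716722-114717021, minus strand: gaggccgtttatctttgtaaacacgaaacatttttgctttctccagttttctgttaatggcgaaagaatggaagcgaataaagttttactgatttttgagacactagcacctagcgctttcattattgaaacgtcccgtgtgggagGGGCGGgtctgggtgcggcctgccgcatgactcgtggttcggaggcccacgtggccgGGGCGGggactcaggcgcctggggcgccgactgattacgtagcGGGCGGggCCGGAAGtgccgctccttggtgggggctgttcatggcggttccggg
MAP2K1, chr15:66386662-66386961, plus strand: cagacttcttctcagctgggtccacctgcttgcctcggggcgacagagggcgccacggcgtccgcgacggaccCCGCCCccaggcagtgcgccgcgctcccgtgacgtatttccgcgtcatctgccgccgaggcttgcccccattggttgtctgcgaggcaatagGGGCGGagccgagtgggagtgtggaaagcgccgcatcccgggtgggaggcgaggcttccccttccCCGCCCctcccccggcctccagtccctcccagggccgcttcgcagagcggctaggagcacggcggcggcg
NF1, chr17:31094727-31095026, plus strand: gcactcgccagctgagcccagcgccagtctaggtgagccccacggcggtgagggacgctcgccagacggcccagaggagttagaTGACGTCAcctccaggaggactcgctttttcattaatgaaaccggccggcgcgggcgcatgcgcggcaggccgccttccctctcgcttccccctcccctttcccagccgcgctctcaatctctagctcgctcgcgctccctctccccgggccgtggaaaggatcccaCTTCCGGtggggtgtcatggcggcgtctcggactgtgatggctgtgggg
MAP2K2, chr19:4124073-4124372, minus strand: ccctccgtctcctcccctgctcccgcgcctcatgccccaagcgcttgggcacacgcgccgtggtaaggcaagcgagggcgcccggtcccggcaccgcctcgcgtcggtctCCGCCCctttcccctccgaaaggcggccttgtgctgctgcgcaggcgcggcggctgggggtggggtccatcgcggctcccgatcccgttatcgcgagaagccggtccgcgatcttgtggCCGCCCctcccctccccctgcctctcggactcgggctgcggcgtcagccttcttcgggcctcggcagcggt

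NRAS carried 3 GC boxes and 1 ETS motif, MAP2K1 carried 3 GC boxes, MAP2K2 carried 2, and NF1 carried none but held the response element and 1 ETS motif. Of the windows not printed, that of HRAS held 5 GC boxes and 1 ETS motif and that of MAPK3 held 8 GC boxes. The window of BRAF in the RefSeq promoter table is built on a start 661 bases inside the gene from the RefSeq gene start. It was not used. Among all 35116 windows in the RefSeq table, 44.95% held a GC box, 10.26% an ETS motif and 1.848% the response element. At least 2 GC boxes were in 26.73% of windows, at least 3 in 15.77%, at least 5 in 5.137% and at least 7 in 1.495%. The windows of NRAS and MAPK3 also held 1 E-box each (CACGTG, not capitalised), a motif in 7.256% of windows. The other 6 windows each had more CpG dinucleotides than the median window (14), from 25 in NRAS to 39 in MAP2K2 and 40 in HRAS. A region covered all 300 bases of the NRAS and MAP2K1 windows and 273 bases of that of NF1. It covered 27 bases for HRAS and 29 for MAPK3, and no assigned region touched the window of MAP2K2.

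Values are mean pileup heights, the average number of overlapping sequenced fragments over a region, as deposited. No source used here states the scaling between both libraries, and the side of a ratio depends on it. Estimated tags in all regions numbered 5898442 in the H3.1/H3.2 library and 7333065 in the H3.3 library, with a median of 45 and 56 per region. In the 51 regions of the 7 genes the tags ran from 4 to 2004 and from 7 to 2402. A region was a promoter region of a gene if it reached into the window from 7500 bases upstream to 2500 bases downstream of the gene's start, and a gene body region if it lay inside the gene outside that window. Of the 51 regions, 12 were promoter regions of the named gene, 27 lay in its body, 4 upstream and 8 downstream, and 30 were also assigned to another gene.

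At the promoter region nearest each start, H3.3 exceeded H3.1/H3.2 at BRAF, NF1 and MAPK3, both were close to balance at MAP2K1, NRAS and HRAS, and H3.1/H3.2 exceeded H3.3 at MAP2K2. The exact conditional 95% interval of the fold, H3.3 over H3.1/H3.2, lay above 1 in 3 of the 7 genes, below 1 in 1 and included 1 in 3. Over all 17529 genes with a promoter region it lay above 1 in 67.5% and below 1 in 15.2%. The median log2 ratio, computed with a pseudocount of 1, was 0.38 over the 7 genes and 0.89 over all genes. The nearest promoter region covered the start in 2 of the 7 genes, against 60.37% of all genes, so the positions compared were unlike. The authors had called 2 of the 7 regions in H3.3 alone, 2 in H3.1/H3.2 alone and 3 in both ChIPs, where all genes gave 57.6%, 11.1% and 31.3%. BRAF, NF1, HRAS and MAP2K2 had regions called in 1 ChIP alone, so their sides are partly set by that call.

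**Figure D1:**
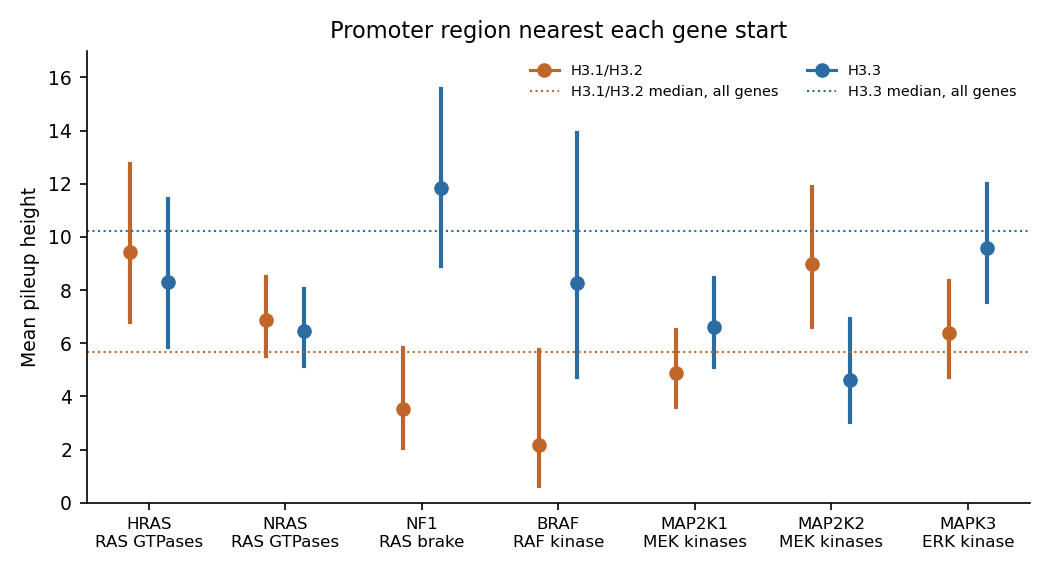
Mean pileup height of H3.1/H3.2 (orange) and H3.3 (blue) at the promoter region nearest each gene's start, with exact Poisson 95% intervals from estimated tags, 1 library each; dotted lines are the medians over all genes, 5.677 and 10.22. H3.3 is above H3.1/H3.2 without overlap of intervals at NF1 only, and MAP2K2 has the lowest H3.3 height, 4.632.

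The RAS GTPases stood near balance at the promoter region nearest the start. HRAS, the smallest of the genes, lies within the annotated body of LRRC56, and its nearest promoter region (chromosome 11, 535800 to 536799) had an H3.1/H3.2 height of 9.419 and an H3.3 height of 8.30. The fold was 0.881 (0.551 to 1.40, from 37 and 42 tags), the authors called only H3.1/H3.2 there, and the region's edge lay 238.5 bases upstream of the start. At NRAS, the region over the start (chromosome 1, 114714600 to 114717399) had heights of 6.869 and 6.452 and a fold of 0.939 (0.687 to 1.29). It was the only 1 of the 7 nearest promoter regions without a CpG island in the authors' annotation.

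Both RAS genes had further promoter regions, and these went different ways. At HRAS, a region 2738 bases upstream had heights of 6.608 and 11.852, a fold of 1.79 (1.35 to 2.40). The region from 531000 to 534999, which covered most of the gene, reached 19.952 in H3.1/H3.2 and 22.336 in H3.3, a fold of 1.12 (0.969 to 1.30). Its heights stood at percentiles 99.9 and 99.66 of all regions, and 9 regions of the whole list, itself included, were at least as high in both libraries. At NRAS, heights were 7.480 and 8.83 in a region centred 2305 bases upstream (1.18-fold, 0.903 to 1.54) and 10.29 and 4.724 in one centred 5705 bases upstream (0.459-fold, 0.336 to 0.612). H3.3 therefore exceeded H3.1/H3.2 beyond counting error in 1 of the 3 HRAS promoter regions and in 0 of the 3 of NRAS.

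The promoter region nearest the start of NF1 lay on the H3.3 side at either of its annotated starts. The region nearest the start in the authors' table (chromosome 17, 31008400 to 31009399) had an H3.1/H3.2 height of 3.517 and an H3.3 height of 11.839, a fold of 3.37 (1.86 to 6.21, from 53 and 16 tags). That start lies 87.104 kb upstream of the RefSeq start of NF1, whereas the table and RefSeq differed by at most 1000 bases in the other 6 genes. At the RefSeq start, the region from 31093000 to 31094999 had heights of 2.407 and 8.677 and a fold of 3.60 (2.24 to 6.26). Both regions held a CpG island and were called in H3.3 alone. The other promoter region at the RefSeq start, from 31095200 to 31096399, had heights of 4.789 and 7.658 and a fold of 1.60 (0.942 to 2.69), and was called in both ChIPs.

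BRAF, the RAF kinase of the set, was represented by a single region, in its promoter window (chromosome 7, 140925000 to 140925399), which was also assigned to LOC105375536. H3.1/H3.2 was at 2.167 and H3.3 at 8.25, from 4 and 15 tags, and the fold was 3.81 with a wide interval of 1.19 to 15.5. The H3.1/H3.2 height stood at percentile 4.741 of all nearest promoter regions and the H3.3 height at percentile 26.72. The high ratio thus came with an H3.3 height below the median of 10.22 over all genes.

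The MEK genes differed at the promoter region nearest the start. MAP2K1, encoding MEK1, shares its start region (chromosome 15, 66386400 to 66388599) with the divergent gene TIPIN, a replication fork protection factor, and heights there were 4.864 and 6.618, a fold of 1.36 (0.918 to 2.01). The nearest promoter region of MAP2K2, encoding MEK2, lay inside the gene with its edge 585.5 bases from the start (chromosome 19, 4122400 to 4123599). It had 8.974 in H3.1/H3.2 and 4.632 in H3.3, a fold of 0.516 (0.308 to 0.862, from 25 and 48 tags). The MAP2K1 fold was 2.60 times that of MAP2K2 (exact conditional interval 1.35 to 5.03). The positions compared are unlike, as only the MAP2K1 region covered its start. MAP2K2 was at percentile 3.957 of the promoter regions with a CpG island, of which 12.85% had an interval below 1. A region centred 5315 bases upstream of MAP2K2 had 3.787 and 12.092, a fold of 3.19 (2.44 to 4.23), and with both promoter regions joined the fold was 2.12 (1.70 to 2.66), on the other side of 1.

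MAPK3, encoding the kinase ERK1, had an H3.1/H3.2 height of 6.393 and an H3.3 height of 9.589 (chromosome 16, 30121400 to 30123199), a fold of 1.4999 (1.05 to 2.195) in a region called in both ChIPs. It was the only promoter region of this gene. The order of the log2 ratios was BRAF (1.55), NF1 (1.51), MAPK3 (0.52), MAP2K1 (0.38), NRAS (-0.08), HRAS (-0.16) and MAP2K2 (-0.82). Between neighbours in this order, only NF1 and MAPK3 differed beyond counting error, with a ratio of folds of 2.19 (1.09 to 4.56). Of the 21 pairs of genes, 10 had an interval of the ratio of folds that left out 1, without adjustment for the number of pairs.

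Grouped by pathway step, with all promoter regions of a step joined by their tags, the fold was 1.04 (0.944 to 1.15) for the RAS GTPases, 3.31 (1.86 to 6.21) for NF1 and 3.75 (1.19 to 15.5) for BRAF. It was 1.90 (1.57 to 2.30) for the MEK kinases and 1.51 (1.05 to 2.195) for MAPK3, and 1.41 for the promoter regions of all genes joined. The 12 promoter regions had an interval above 1 in 5, below 1 in 2 and including 1 in 5, where 60.1% and 20.5% of all promoter regions lay above and below. The HRAS and NRAS promoter regions, joined by gene, lay on opposite sides of 1, at 1.21 (1.07 to 1.37) for HRAS and 0.806 (0.685 to 0.948) for NRAS. The MEK value rested mainly on the upstream region of MAP2K2, which held 227 of the 317 H3.3 tags.

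Inside the genes, NRAS was on the H3.1/H3.2 side throughout, MAP2K1 and NF1 alternated along their length, MAP2K2 lay in 1 long region close to balance, and MAPK3 was on the H3.3 side. HRAS and BRAF had no gene body region. HRAS is 3335 bases long, so the promoter window takes in most of it, and its region inside the gene counted as a promoter region. Of 558 genes with a promoter region and a length within 1.2 times that of HRAS, 97.13% had no body region. Of the 27 gene body regions, 9 had an interval above 1, 11 below 1 and 7 including 1, and over all 44823 gene body regions 32.4% lay above and 44% below. The authors had called 9 of the 27 in H3.3 alone, 15 in H3.1/H3.2 alone and 3 in both, where all body regions gave 34%, 50.6% and 15.4%. The counts are close to these shares and show nothing particular to the 7 genes.

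**Figure D2:**
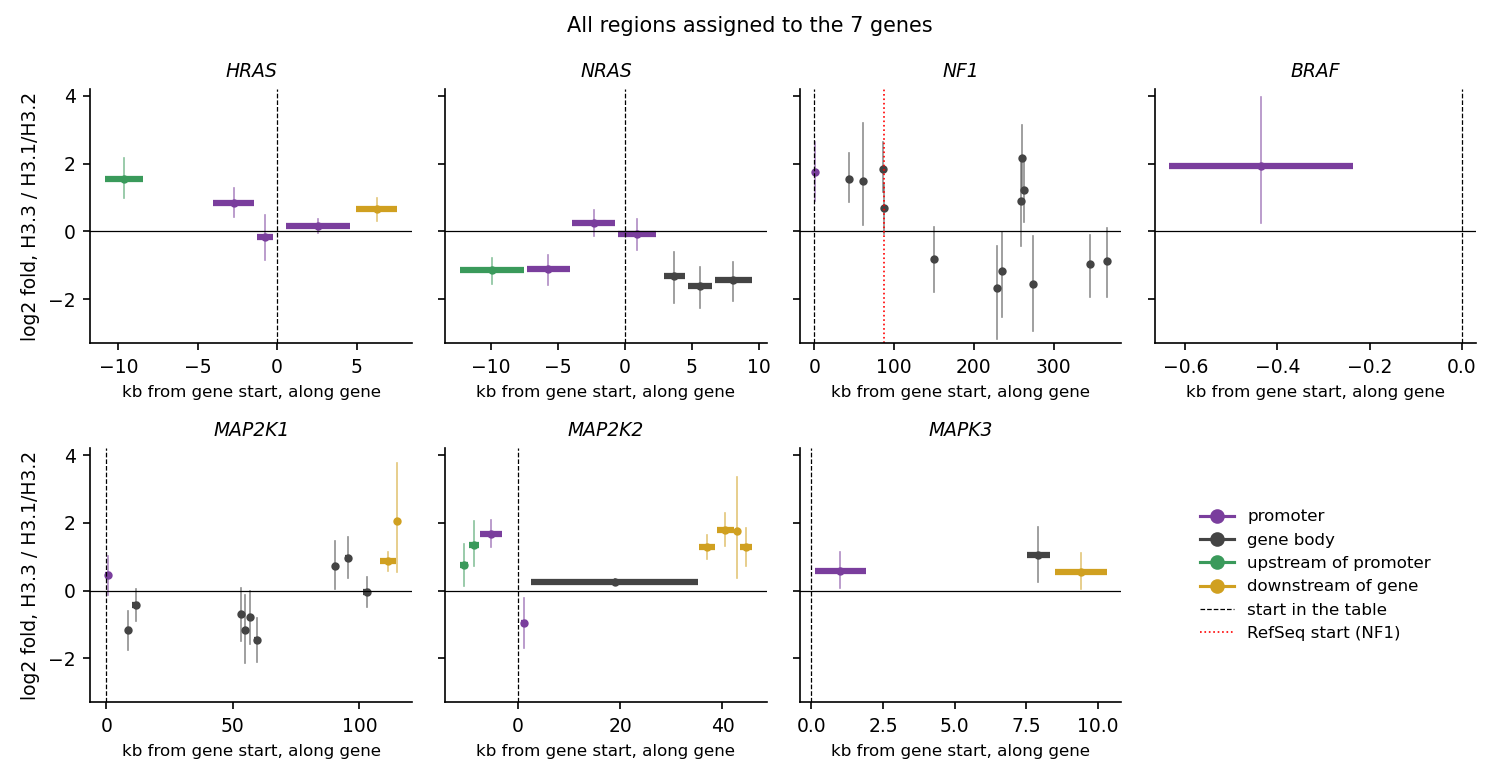
Log2 fold (H3.3 to H3.1/H3.2 mean height) in all 51 regions against distance from the start in the table, along the gene; thick bars span each region, thin bars are exact conditional 95% counting intervals, and the dotted red line is the RefSeq start of NF1. The 3 body regions of NRAS lie below 0, those of NF1 and MAP2K1 fall on both sides, and every region downstream of MAP2K1, MAP2K2, MAPK3 and HRAS lies above 0.

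In NRAS the 3 gene body regions were all called in H3.1/H3.2 alone. Heights were 7.80 and 3.1 at 3695 bases from the start, 12.035 and 3.895 at 5595 bases, and 7.908 and 2.894 at 8095 bases, in each pair H3.1/H3.2 first. Joined, they gave a fold of 0.353 (0.274 to 0.451), and the fold at the start region was 2.67 times (1.77 to 4.00) that of the body. The regions spanned 6.197 kb of a gene of 12.30 kb. H3.3 was thus below H3.1/H3.2 beyond counting error on both sides of the NRAS start, 3695 bases into the gene and 5705 bases upstream of it.

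In MAP2K1 the 9 body regions formed 3 groups by call. The first 6 were called in H3.1/H3.2 alone, with H3.1/H3.2 heights of 7.351 to 9.516 and H3.3 heights of 3.444 to 5.753. They lay at 8726 and 11626 bases and from 53126 to 59426 bases, with no region between. Of these, the first had heights of 9.516 and 4.281 (0.450-fold, 0.297 to 0.663), and the lowest, at 59426 bases, had a fold of 0.365 (0.230 to 0.575). Intervals included 1 at 11626 bases (0.743-fold, 0.534 to 1.03) and at 53126 bases (0.614-fold, 0.354 to 1.05). Regions at 90226 and 95326 bases were called in H3.3 alone, with heights of 4.561 and 7.523 (1.65-fold, 1.03 to 2.78) and of 4.242 and 8.323 (1.96-fold, 1.30 to 2.96). The last, at 102926 bases and near the end of the gene, was balanced at 7 and 6.747 (0.964-fold, 0.707 to 1.32). The fold at the start region was 1.74 times (1.15 to 2.64) that of the joined body.

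In NF1 the outcome over the body depended on the start used. With the start in the table there were 13 body regions, a median log2 ratio of 0.58 and a joined fold of 1.45 (1.24 to 1.705). With the RefSeq start, 9 of them were body regions, the median was -0.73 and the joined fold was 0.947 (0.767 to 1.17). Those 9 regions comprised 6 called in H3.1/H3.2 alone and 3 called in H3.3 alone.

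The 3 H3.3 regions of the NF1 body lay together, 172.122 to 175.122 kb from the RefSeq start, at chromosome 17, 31266800 to 31270599. Heights in the middle one were 1.826 in H3.1/H3.2 and 8.16 in H3.3, a fold of 4.47 (2.42 to 8.88), the highest ratio of any gene body region of the 7 genes. The regions before and after this cluster, at 148.722 and 186.822 kb, had folds of 0.445 (0.173 to 0.976) and 0.341 (0.131 to 0.915). The lowest ratio was at 141.622 kb, with heights of 6.56 and 2.042, and the region nearest the end of the gene, at 279.022 kb, had 7.40 and 4.05. Nearest the start in the table, a body region centred 43626 bases from it had 3.039 and 8.839, a fold of 2.91 (1.84 to 4.92). The longest region of the body with that start was the one at the RefSeq start described above. NF1 regions were short, from 599 to 1999 bases, and rested on 6 to 77 tags per library.

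MAP2K2 was covered almost whole by 1 region (chromosome 19, 4089000 to 4121599), called in both ChIPs, with an H3.1/H3.2 height of 13.767 and an H3.3 height of 16.506. The fold was 1.199 (1.13 to 1.27) from 2402 and 2004 tags, the narrowest interval among the 51 regions. It held 4 CpG islands and spanned 32.60 kb, and 27 of the 44823 gene body regions were at least as long, itself included. Both heights were in the top few percent of all regions, at percentiles 98.51 and 97.26. The promoter region nearest the start, itself inside the gene, had a lower fold than the body, with a ratio of 0.4345 (0.256 to 0.722). This was the reverse of NRAS, MAP2K1 and NF1. With both promoter regions joined, the MAP2K2 promoter was instead above the body, at log2 ratios of 0.95 and 0.25.

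Regions on both sides of MAP2K2 were on the H3.3 side. The 4 regions downstream had H3.1/H3.2 heights of 2.214 to 6.25 and H3.3 heights of 7.444 to 15.09, a joined fold of 2.72 (2.29 to 3.24). The 2 regions upstream of the promoter window had a joined fold of 2.08 (1.54 to 2.83). Over the whole set, all 8 downstream regions, at MAP2K2, MAP2K1, MAPK3 and HRAS, had an interval above 1, where 55.7% of all downstream regions did. Those at MAP2K1 were also assigned to SNAPC5, RPL4 and small nucleolar RNA genes, and the longer was centred 191 bases upstream of the SNAPC5 start. The 1 at MAPK3 lay at the start of GDPD3, and the 1 at HRAS was centred 815 bases inside LOC101059906. The 4 at MAP2K2 neighboured each other. The count therefore mixes regions past gene ends with regions at starts of other genes.

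MAPK3 had 1 body region, 799 bases long and centred 7910 bases from the start, with heights of 5.84 and 12.16 (2.08-fold, 1.19 to 3.63). It also lay in the promoter window of GDPD3, centred 1456 bases upstream of that gene's start. The promoter region and the body region of MAPK3 did not differ beyond counting error, with a ratio of folds of 0.737 (0.371 to 1.44).

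By pathway step, the joined body fold was 0.353 for the RAS GTPases, from NRAS alone, 1.45 for NF1 with the start in the table, and 1.11 (1.05 to 1.18) for the MEK kinases. It was 2.05 (1.19 to 3.63) for MAPK3, and 1.06 for the body regions of all genes. The MEK value rested on the long region of MAP2K2, and MAP2K1 alone gave 0.778 (0.681 to 0.889). Of the 5 genes with both kinds of region, 3 had a higher log2 ratio at the promoter than in the body, with a median difference of 0.93. Over 8111 genes the promoter was higher in 71.19%, with a median difference of 0.49. With peak heights the median difference was 0.43 over the 5 genes and 0.56 over all genes, and with a pseudocount of 10 it was 0.42 and 0.23. The promoter was higher in 4 of the 5 with peak heights or with all promoter regions joined.

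**Figure D3:**
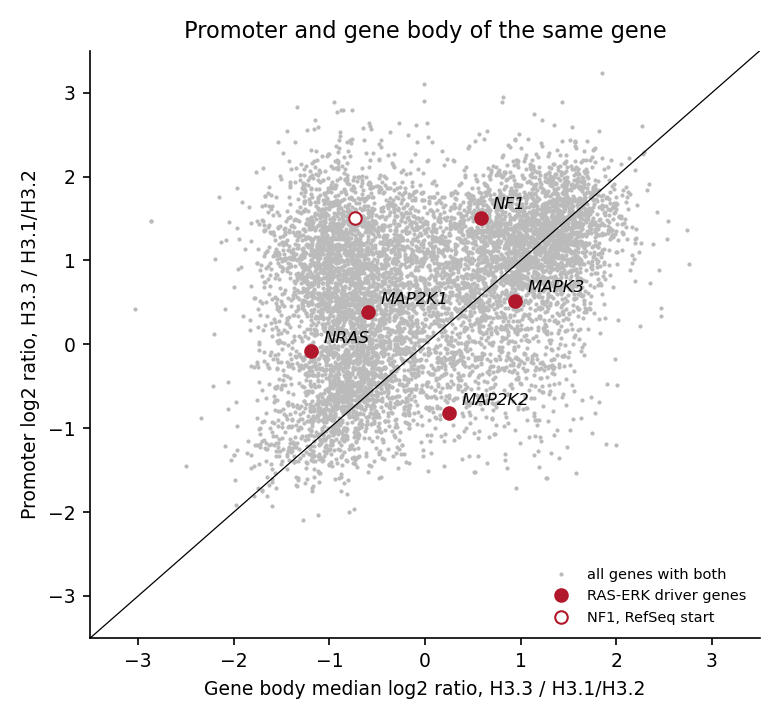
Log2 ratio at the nearest promoter region against the median log2 ratio of the gene body for 8111 genes (grey) and the 5 pathway genes with both kinds of region (red), with a diagonal of equal values; the open circle is NF1 with its RefSeq start. NRAS, MAP2K1 and NF1 lie above the diagonal and MAP2K2 and MAPK3 below it.

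The summed length of body regions relative to the gene also varied. It was 96.44% of the RefSeq length for MAP2K2, whose region runs partly past the RefSeq end of the gene. For NRAS it was 50.37% and for MAP2K1 15.09%. NF1, of 282.7 kb, had 4.948% with the start in the table, part of it upstream of the RefSeq gene. BRAF, of 211.6 kb, had no body region, as did 24.02% of the 358 genes with a promoter region whose length was within 1.2 times that of BRAF. Genes of that length had a median of 3 body regions.

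Other genes of the pathway were described from 40 genes listed by role, of which 30 had a promoter region. The fold interval lay above 1 in 22 of these, below 1 in 3 and included 1 in 5. Over all genes with a promoter region it lay above 1 in 67.5% and below 1 in 15.2%, so the counts were near these shares. The median log2 ratio of 0.96 was close to the 0.89 of all genes. Gene bodies of the 28 genes that had them gave a median of -0.17, against 0.11 over all genes with body regions.

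Upstream of RAS, 6 of the 7 adaptors and exchange factors with a promoter region had an interval above 1. Among them were the exchange factor SOS1 (2.76-fold, 1.72 to 4.55) and the docking protein GAB2 (2.48-fold, 1.75 to 3.60), and the lowest were SOS2 (0.862-fold, 0.624 to 1.19) and the adaptor GRB2 (1.59-fold, 1.275 to 2.01). SOS1 and SOS2 perform the same reaction on RAS. Heights at the nearest promoter region were 4.023 and 11.11 for SOS1 and 8.155 and 7.03 for SOS2. The 4 exchange factors of the RASGRP and RASGRF families on the list had no promoter region.

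Of the 4 other RAS family GTPases, MRAS (3.19-fold, 1.62 to 6.66), RIT1 (2.84-fold, 2.02 to 3.99) and RRAS2 (2.93-fold, 2.08 to 4.21) had an interval above 1. RRAS was balanced at heights of 10.15 and 9.535 (0.939-fold, 0.808 to 1.09), as HRAS and NRAS were. Among GTPase-activating proteins and other brakes, 6 of 8 had an interval above 1, with RASA3 (3.67-fold, 2.97 to 4.58) and DAB2IP (3.81-fold, 2.93 to 5.03) the highest. Nearest to balance were RASAL2 (1.27-fold, 0.988 to 1.64) and PEBP1, an inhibitor of RAF (1.02-fold, 0.867 to 1.201).

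Scaffolds were split, with 3 of 7 above 1, 3 below 1 and a median log2 ratio of -0.47. KSR1, which joins RAF, MEK and ERK (3.915-fold, 2.17 to 7.085), and CNKSR3 (3.52-fold, 2.485 to 5.13) led the group. At its other end were LAMTOR3, an adaptor of MEK1 and ERK1 on late endosomes (0.2925-fold, 0.1825 to 0.443), and BRAP, which restrains KSR1 (0.538-fold, 0.433 to 0.6675). All 4 ERK substrates with a promoter region had an interval above 1, with the ETS factors ELK3 (8.26-fold, 4.16 to 18.9) and ELK4 (4.42-fold, 2.485 to 8.30) the highest. RPS6KA1, a ribosomal S6 kinase (1.76-fold, 1.31 to 2.43), and MKNK2 (2.03-fold, 1.69 to 2.44) were lower. With 4 to 8 genes per group, and 67.5% of all genes above 1, these counts describe the groups. They do not show that groups differ from each other or from all genes.

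**Figure D4:**
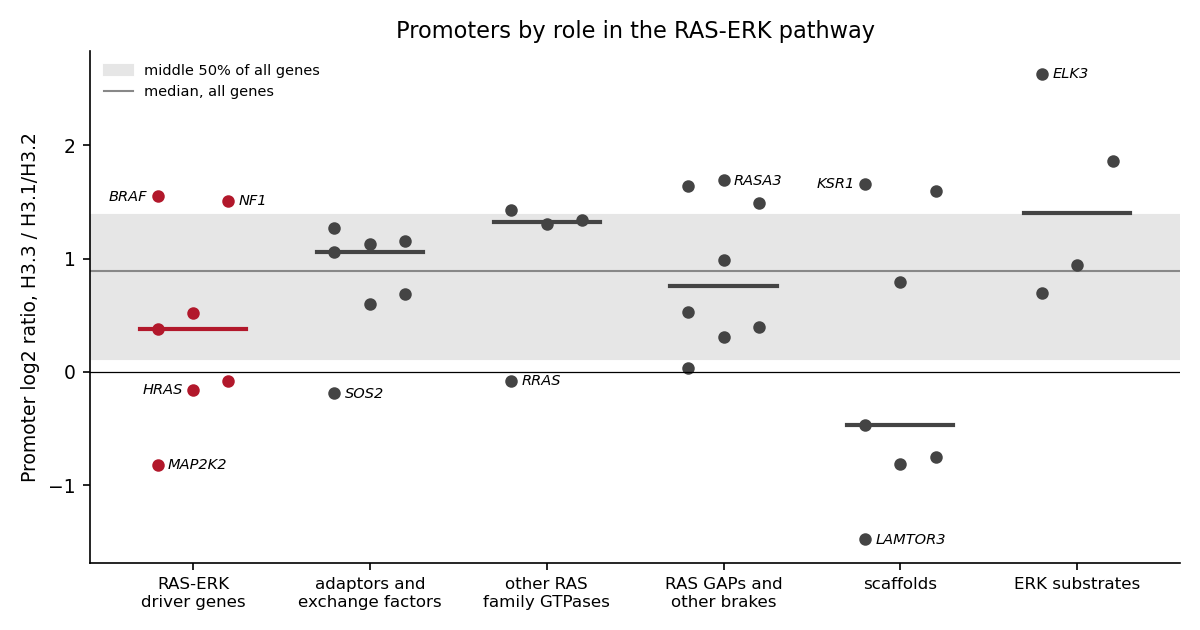
Log2 ratio (H3.3 to H3.1/H3.2) at the nearest promoter region of the 7 pathway genes (red) and of 30 further genes by role (black), with group medians as bars, the median of all genes as a grey line and the range between their quartiles shaded. The median of the 7 genes is 0.38, that of the scaffolds -0.47 and that of the ERK substrates 1.40, and ELK3 has the highest ratio.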

How the data were processed

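Chromatin (30 µg) was immunoprecipitated with 4 µg of the H3.1/H3.2 antibody or 6 µg of the H3.3 antibody and sequenced as 75 nt single-end reads, per the labels' protocols. The submitters' processing notes name BWA, SICER and hg38, without versions, roles or settings. The authors deposited 1 list of merged regions with the pileup signal of each ChIP as mean and peak heights, per the file headers, and with region calls, CpG islands, genes and distances to gene starts.

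Computed here with Python 3.11.15 and scipy 1.17.1: 4 regions on chromosome Y were left out, and tags were taken as mean height times length over 224, the constant by which the table relates heights to tags. Fold intervals were exact conditional, ratios of folds exact conditional odds ratios, and height intervals exact Poisson, all at 95%. Reads had no molecular identifiers, so these cover counting error only, and if heights had been scaled the tags would be off by the same factor. The window of 7500 bases upstream to 2500 downstream gave the authors' promoter mark in 100% of 36810 single-gene regions, and the nearest region had the smallest gap from its edge to the start. A log2 ratio had a pseudocount of 1, and a body value was the median over body regions. The interval code was tested on simulated data.

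Named were the 7 genes with every promoter region, and for genes with more than 6 body regions the highest, lowest, longest, first and last of these. Of each role group, the 2 highest and 2 lowest genes by log2 ratio were named. Another group of the list is not reported here. Further body regions of NF1, and the downstream regions, were chosen with their values in view. The genes and lists were chosen with earlier results of these data known. RefSeq starts, lengths and windows are from GRCh38.p14, in which 12618 of 21948 symbols were matched with a strand. Alternatives were peak heights, other pseudocounts, longer or higher regions, a centring, joined regions, nearer or unshared promoter regions and, added after the data were seen, RefSeq starts.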

Additional observations from a re-analysis of the deposited data

How the results depend on the processing

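The median over genes has no counting interval of its own, so changes were set against that of MAP2K1, the gene at the promoter median. Its fold interval, 0.918 to 2.01, is wide. The median promoter log2 ratio of the 7 genes, 0.38 as reported, ran from 0.15 to 0.55 and stayed within that width under all alternatives but 1. Restricted to promoter regions assigned to no other gene, which left MAP2K2 alone, it was -0.82, the promoter minus body difference was -1.07 and 0 genes had an interval above 1. The median body log2 ratio, 0.25 over 5 genes, was 0.48 with peak heights and 0.16 with a pseudocount of 10. It turned to -0.12 in regions of at least 1000 bases, where 4 genes remained, and to -0.60 with RefSeq starts, which moved the NF1 value from 0.58 to -0.73. The number of genes with a promoter interval above 1 rose from 3 to 5 with all promoter regions joined, and under that setting MAP2K2 turned from -0.82 to 0.95. The promoter minus body difference, 0.93 as reported, was 0.43 with peak heights and 0.42 with a pseudocount of 10. Of 102 recomputed values of single genes, 95 stayed within counting error and 5 changed sign. The 95 say little of robustness, because several alternatives kept the same regions. A minimum mean height of 5 and promoter regions within 1000 bases of the start changed no single-gene value. Besides MAP2K2 and NF1, the promoter of HRAS went from -0.16 to 0.18 with peak heights and to 0.26 with promoter regions joined, and that of NRAS from -0.08 to 0.55 with peak heights. The cause of these differences was not tested beyond the construction of each alternative. BRAF, with 4 and 15 tags, is limited by depth. No paired analysis was possible because each antibody had 1 library.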

Other observations

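Outside the pathway, the genes whose heights were most like the median of the 5 genes with both kinds of region were sought over 8078 genes, by Euclidean distance in the log2 mean heights of promoter and body in both libraries. They were SF3B3, which encodes a subunit of the SF3b splicing complex, at a distance of 0.132, ZSCAN21, a zinc finger gene, at 0.152, and LOC100129940 at 0.191. SF3B3 had promoter heights of 6.969 in H3.1/H3.2 and 6.687 in H3.3 and body heights of 7.571 and 6.29. The medians of the 5 genes were 6.393 and 6.618 at the promoter and 7.711 and 6.158 in the body. With 4 heights per gene this likeness is a description only.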
